A study of Homo sapiens with 14 samples.

Results

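The genes of oxidative phosphorylation were followed across 2 human cancer cell lines treated with cell-cycle inhibitors or with indisulam. Members were the protein-coding genes with GENCODE symbols beginning NDUFA, NDUFB, NDUFC, NDUFS or NDUFV, SDHA to SDHD, UQCR, COX4 to COX8 or ATP5, together with the protein-coding genes of mitochondrial DNA. This gave 109 of the 60683 gene identifiers in the count files, of which 96 lie in the nuclear genome and 13 in mitochondrial DNA. The nuclear members were 37 complex I genes, 4 of complex II, 9 of complex III, 19 of complex IV and 19 of ATP synthase. The remaining 8, NDUFAF1 to NDUFAF8, met the symbol pattern but are complex I assembly factors and not subunits. They were kept apart where values are given by complex, but every sum, median and count over the nuclear members includes them. NDUFA4 and its paralog NDUFA4L2 were counted with complex IV. The 2 readthrough symbols were left out, and cytochrome c1 (CYC1) and cytochrome c (CYCS) lie outside the symbol pattern.

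RNA was sequenced from A549, a human lung adenocarcinoma line grown in RPMI, and SUM159, a triple negative breast cancer line grown in DMEM/F12 with insulin and hydrocortisone. A549 cells were untreated, or received palbociclib at 2 µM, indisulam at 0.5 µM or both drugs at these doses for 10 days, or PF-06873600 at 0.5 µM for 7 days. SUM159 cells were untreated or received PF-06873600 at 0.5 µM for 7 days. Each of the 7 groups had 2 libraries, which the series describes as technical duplicates, so p-values measure only the spread between these libraries. Palbociclib inhibits CDK4 and CDK6, PF-06873600 also inhibits CDK2, and indisulam leads to degradation of the splicing factor RBM39. These drugs act on proteins, so no transcript served as a check of the labels. When the untreated cells were harvested is not given in the sources used here, and the untreated A549 libraries served every A549 comparison with untreated cells. The combination libraries likewise served all 3 comparisons of the combination.

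Libraries held 13060374 to 21149256 counts on genes. Values are counts per 1000000 counts of this total (CPM), so they are shares of a library, and fewer cells, or less RNA per cell, cannot be told apart from them. Among 5 markers listed for the lung line, CDH1 stood at 160.0 and 151.8 CPM and AKR1B10 at 6296 and 6667 CPM in untreated A549 cells. All 5 also passed the filter on low counts in SUM159, as did all 3 listed SUM159 markers in A549. Passing it therefore does not tell the lines apart. In untreated SUM159 cells the hormone receptor genes ESR1 and PGR were at most 0.302 CPM, while VIM stood at 4318 and 4006 CPM. MKI67, a marker of proliferating cells, fell in all 5 comparisons with untreated cells, from −0.31 on the log2 scale with indisulam to −2.58 with the combination. Of 8 markers of fibroblasts, immune and endothelial cells, CD3E was at 0 in every library. Their summed level was 3.47 to 4.13 CPM in untreated A549 cells and 75.6 to 76.4 CPM in combination-treated cells, where 7 of 8 were detected and COL1A1 made up most of it (2.12 to 2.69 CPM without COL1A1). It was 5.27 to 5.43 CPM with palbociclib, 20.9 to 22.1 CPM with indisulam and 10.1 to 11.3 CPM with PF-06873600 in A549. In SUM159 it was 1719 to 1818 CPM untreated and 4062 to 4222 CPM with PF-06873600. Without COL1A1 these were 118.5 to 119.9 CPM and 928.8 to 964.9 CPM, so other markers rose there too. The part of these markers in the results was not tested.

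Oxidative phosphorylation passes electrons from NADH (complex I) and succinate (complex II) through complex III and cytochrome c to complex IV, which reduces oxygen. Complexes I, III and IV pump protons out of the mitochondrial matrix, and ATP synthase lets them return to make ATP. Complex II is encoded wholly in the nucleus, whereas the other complexes join nuclear subunits to core proteins made inside the mitochondrion, so both genomes have to be expressed together.

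The mitochondrial genes differ from the nuclear ones in how tightly they are packed, which bears on how their reads can be assigned. The junctions below are shown for this reason, from the RefSeq sequence of build GRCh38.p14. Capitals mark the bases shared by MT-ATP8 and MT-ATP6 (46 bases), those shared by MT-ND4L and MT-ND4 (7 bases), and the last 30 bases of MT-ND6 where it meets MT-ND5. MT-ND6 is the only protein gene of this set read from the opposite strand.
Overlap of MT-ATP8 and MT-ATP6, chrM:8512-8587, plus strand: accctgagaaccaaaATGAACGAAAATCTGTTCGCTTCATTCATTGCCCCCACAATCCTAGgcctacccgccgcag
Overlap of MT-ND4L and MT-ND4, chrM:10740-10786, plus strand: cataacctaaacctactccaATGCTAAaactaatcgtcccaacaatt
Junction of MT-ND5 and MT-ND6, chrM:14119-14178, plus strand: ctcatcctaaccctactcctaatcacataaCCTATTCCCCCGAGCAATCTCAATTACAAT

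Promoter sequence, which the symbol pattern did not use, was searched for short strings. RefSeq promoters (250 bases before to 50 bases after the start) were matched for 77 of the 96 nuclear members. Core strings of 3 factors known to act at such genes were searched on both strands: CATGCGC for NRF1, CCGGAAG for ETS factors such as GABPA, and AAGATGG for YY1. The ETS string ends with the letters that open the YY1 string, so the pair can overlap, and the NRF1 string can overlap its own reverse complement. NRF1 letters were found in 20.8% of member promoters and 4.67% of all 27305 promoters. ETS letters were found in 27.3% and 10.7%, YY1 letters in 20.8% and 6.06%, and any of them in 51.95% and 19.3%. So 40 of the 77 promoters held at least 1 of the strings, and NRF1 letters were found in no complex III promoter and YY1 letters in no assembly factor promoter. Matching letters do not show that a factor binds, and their absence from a window says nothing about the factor. Promoters of 4 members on which the results below turn are printed with the matching letters in capitals.
NDUFS1, chr2:206159395-206159694, minus strand: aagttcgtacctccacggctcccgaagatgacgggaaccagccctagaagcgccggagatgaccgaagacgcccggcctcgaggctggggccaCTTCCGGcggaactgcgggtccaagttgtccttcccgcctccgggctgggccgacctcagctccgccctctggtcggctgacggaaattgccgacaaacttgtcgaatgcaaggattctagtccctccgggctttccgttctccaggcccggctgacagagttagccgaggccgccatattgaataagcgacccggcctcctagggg
ATP5MC2, chr12:53676034-53676333, minus strand: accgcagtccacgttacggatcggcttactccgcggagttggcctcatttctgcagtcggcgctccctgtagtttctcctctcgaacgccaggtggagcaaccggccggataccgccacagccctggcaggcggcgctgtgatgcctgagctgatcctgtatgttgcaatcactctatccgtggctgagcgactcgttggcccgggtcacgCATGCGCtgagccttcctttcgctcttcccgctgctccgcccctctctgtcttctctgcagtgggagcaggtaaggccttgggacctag
COX6A1, chr12:120437863-120438162, plus strand: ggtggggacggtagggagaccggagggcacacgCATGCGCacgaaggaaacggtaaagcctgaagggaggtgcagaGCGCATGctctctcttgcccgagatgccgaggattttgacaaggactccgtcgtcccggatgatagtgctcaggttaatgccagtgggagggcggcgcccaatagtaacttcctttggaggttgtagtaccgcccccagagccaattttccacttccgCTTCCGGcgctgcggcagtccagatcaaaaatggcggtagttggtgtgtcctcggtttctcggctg
NDUFAF4, chr6:96897842-96898141, minus strand: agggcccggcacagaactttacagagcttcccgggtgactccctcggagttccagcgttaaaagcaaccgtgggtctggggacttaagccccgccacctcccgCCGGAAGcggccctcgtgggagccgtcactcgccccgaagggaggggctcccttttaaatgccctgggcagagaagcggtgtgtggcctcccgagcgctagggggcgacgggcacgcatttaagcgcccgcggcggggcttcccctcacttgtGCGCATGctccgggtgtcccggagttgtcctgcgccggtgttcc
NDUFS1 held the ETS letters, ATP5MC2 the NRF1 letters, and both COX6A1 and NDUFAF4 held NRF1 and ETS letters. No string was matched in the windows of ATP5MC1, COX7A2, COX7A2L, NDUFAF8 or NDUFS8.

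Mitochondrially encoded transcripts stood far above nuclear ones in untreated cells when levels were set per kilobase of canonical transcript. In untreated A549 libraries, the median over the 13 mitochondrial genes was 2756 and 2266 CPM per kilobase, against 55.8 and 58.7 over the nuclear members. MT-ND4 was highest (mean of 5672 CPM per kilobase) and MT-ND6 lowest (123) of the mitochondrial complex I genes. Among nuclear genes, ATP5MC2, which encodes the ring subunit c of ATP synthase, reached 744 CPM per kilobase. COX6B1, an outer subunit of complex IV, reached 593, NDUFA1 of complex I reached 350, UQCRH of complex III reached 230.5, and SDHB, the iron-sulfur subunit of complex II, reached 68.4. In SUM159 the highest nuclear gene was ATP5F1B, the catalytic beta subunit of ATP synthase.

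Tissue-restricted isoforms of complex IV were all but absent from both lines. COX4I2, COX6A2 and COX7A1, isoforms of lung, heart and muscle, had 0 counts in all 14 libraries, which allows up to 3 counts in each. COX6B2, COX7B2 and COX8C, forms known from testis, did not exceed 0.520 CPM. Their ubiquitous partners COX4I1, COX6A1, COX7A2, COX6B1, COX7B and COX8A were all counted in every library. Of 96 nuclear members, 88 passed the filter on low counts in A549 and in the model of both lines, and 87 in SUM159. ATP5MGL, NDUFA7 and the 6 isoforms above did not pass, nor did NDUFA4L2 in SUM159. NDUFA7 held 3 to 11 counts per library, with 77.9% of its canonical transcript overlapped by another gene on the same strand. Its low count therefore does not show that it is absent. All 13 mitochondrial genes passed.

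Nuclear and mitochondrially encoded totals, both shares of the same library, were followed over the groups. The nuclear members summed to 8703 and 9292 CPM in untreated A549 cells, 8630 and 8347 with palbociclib, 8114 and 8207 with indisulam, and 7011 and 6624 with the combination. Both combination libraries lay below all other A549 libraries. PF-06873600 gave 8393 and 8371 CPM in A549. In SUM159 the sums were 7612 and 7344 CPM untreated and 6691 and 6858 CPM with PF-06873600, without overlap. With 2 libraries against 2, a permutation test on a sum cannot give a two-sided p below 0.333, so sums were described and tests were made gene by gene.

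**Figure D1:**
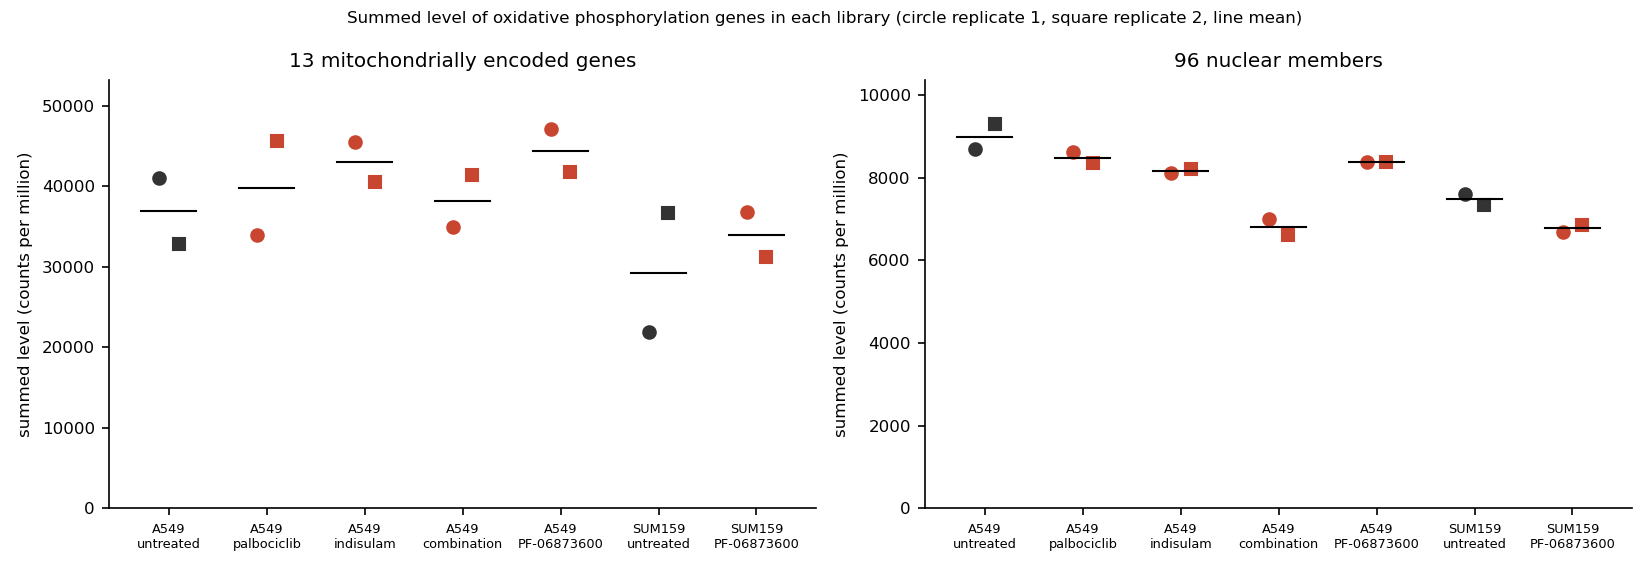
Summed CPM of the 13 mitochondrially encoded genes (left) and the 96 nuclear members (right) on linear axes from 0, with a point per library (circle, replicate 1; square, replicate 2) and a line at the group mean. The nuclear duplicates lie close together and both combination libraries (7011 and 6624 CPM) lie below the other A549 libraries, while the mitochondrial duplicates are spread, most in untreated SUM159 (21850 and 36628 CPM).

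The mitochondrial sums were far less repeatable than the nuclear ones. They were 41081 and 32795 CPM in untreated A549, 34003 and 45676 with palbociclib, 45545 and 40502 with indisulam, 34921 and 41445 with the combination, and 47104 and 41768 with PF-06873600. In SUM159 they were 21850 and 36628 CPM untreated and 36841 and 31179 CPM with PF-06873600. The higher duplicate exceeded the lower by 1.12-fold to 1.68-fold, against 1.00-fold to 1.07-fold for the nuclear sums. In 6 of 7 groups the duplicate with more mitochondrial counts also had the larger share of reads on no gene (4.31% to 7.06% over the libraries), the exception being the A549 combination. It had the lower nuclear sum in 6 of 7 groups too, the exception there being PF-06873600 in A549. The part of this difference between duplicates in the results was not tested. In each line the lowest mitochondrial sum was that of an untreated library, and the highest that of a PF-06873600 library. In SUM159, however, that highest sum (36841 CPM) lay close to an untreated library (36628 CPM), and the 2 groups overlapped.

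In A549 cells, palbociclib alone left most nuclear members within the spread of the duplicates. By edgeR's quasi-likelihood test over 15780 genes at an adjusted p under 0.05, 7 of 88 tested nuclear members fell and 0 rose, beside 7.4% of all genes called lower and 8.3% called higher. The median log2 change was −0.05 (−0.01 over all genes). Of the 7, 5 belonged to complex I. ATP5MC2 stood at 450.9 and 489.1 CPM in untreated cells and at 376.8 and 361.4 with palbociclib. Both treated libraries lay below both untreated ones, and the gene fell by 0.35 on the log2 scale (SE 0.06, adjusted p = 0.00094). NDUFA12, an accessory complex I subunit, had 61.0 and 68.7 CPM untreated and 51.9 and 46.1 treated, and fell by 0.41 (SE 0.09, adjusted p = 0.0051). NDUFA6 (−0.37), NDUFS4 (−0.30) and NDUFB9 (−0.26) also fell. NDUFA4L2, an inducible paralog of the complex IV subunit NDUFA4, fell by 0.71 from 8.22 and 8.13 CPM. The count of 7 rested on single libraries: it was 22 (with 4 higher) without untreated replicate 1, 4 without palbociclib replicate 1 and 1 without palbociclib replicate 2. The call of ATP5MC2 held with any library left out, and those of the other genes named were lost without palbociclib replicate 2. NDUFS4, NDUFB9 and NDUFA4L2 were also lost without palbociclib replicate 1, and the first pair without untreated replicate 2. With DESeq2 the calls of NDUFA6, NDUFS4, NDUFB9 and NDUFA4L2 were lost. That of NDUFB9 was lost as well with TMM factors and with a replicate block.

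Indisulam lowered nuclear members in A549, most often those of complex IV and ATP synthase. Of 88 tested nuclear members 29 fell and 2 rose, where 17.5% of all genes were called lower and 28% higher. Higher calls made up 61.6% of all calls, and 50.4% with TMM scaling. The median log2 change was −0.13, against 0.08 over all genes. By complex, 8 of 36 tested complex I genes, 1 of 4 in complex II, 2 of 9 in complex III, 8 of 13 in complex IV and 8 of 18 in ATP synthase fell. NDUFB8, an accessory complex I subunit, was at 16.7 and 17.3 CPM untreated and at 8.22 and 8.13 with indisulam. It fell by 1.05 on the log2 scale (SE 0.12, adjusted p = 5.3e-06), with 72.0% of its canonical transcript overlapped by another gene on the same strand. COX7A2L, which links complexes III and IV into supercomplexes, went from 166.5 and 193.9 CPM to 109.5 and 115.0 and fell by 0.68 (SE 0.07, adjusted p = 4.3e-06). NDUFS1, the largest iron-sulfur subunit of complex I, was at 96.9 and 105.7 CPM untreated and 73.4 and 71.2 treated, a fall of 0.49 (adjusted p = 4.3e-05). The treated libraries lay below the untreated ones for each of these genes. The c-ring genes ATP5MC1 (−0.41) and ATP5MC2 (−0.38) fell together, and ATP5MC3 stood at −0.06 without passing the test. The genes that rose were the assembly factors NDUFAF5 (0.45) and NDUFAF6 (0.38), while NDUFAF7 fell by 0.47. NDUFAF5 lost its call without indisulam replicate 1, NDUFAF6 without untreated replicate 2 or indisulam replicate 2, and NDUFAF7 without indisulam replicate 2. The rises of NDUFAF5 and NDUFAF6 were also lost with DESeq2, and that of NDUFAF6 with TMM factors. The fallen count was 16 without indisulam replicate 1 and 18 without indisulam replicate 2. The risen count was 5 and 8 without untreated replicate 1 and 2 in turn, and 1 without either indisulam library.

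The combination of palbociclib and indisulam lowered members of every complex in A549 cells, and each tested nuclear gene of complex IV. Of all nuclear members, 59 of 88 tested fell and 3 rose against untreated cells, where 30% of all genes were called lower and 35.1% higher. The median log2 change was −0.30, against 0.05 over all genes. All 13 tested nuclear complex IV genes fell (median −0.62), as did 16 of 18 in ATP synthase (median −0.38), 20 of 36 in complex I (median −0.27), 6 of 9 in complex III (median −0.20) and 2 of 4 in complex II. The summed nuclear level was 67.5% of untreated for complex IV, 75.5% for ATP synthase, 79.8% for complex I, 80.7% for complex III and 83.0% for complex II. Assembly factors stood at 102.6%, with 3 of 8 higher and 2 lower.

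**Figure D2:**
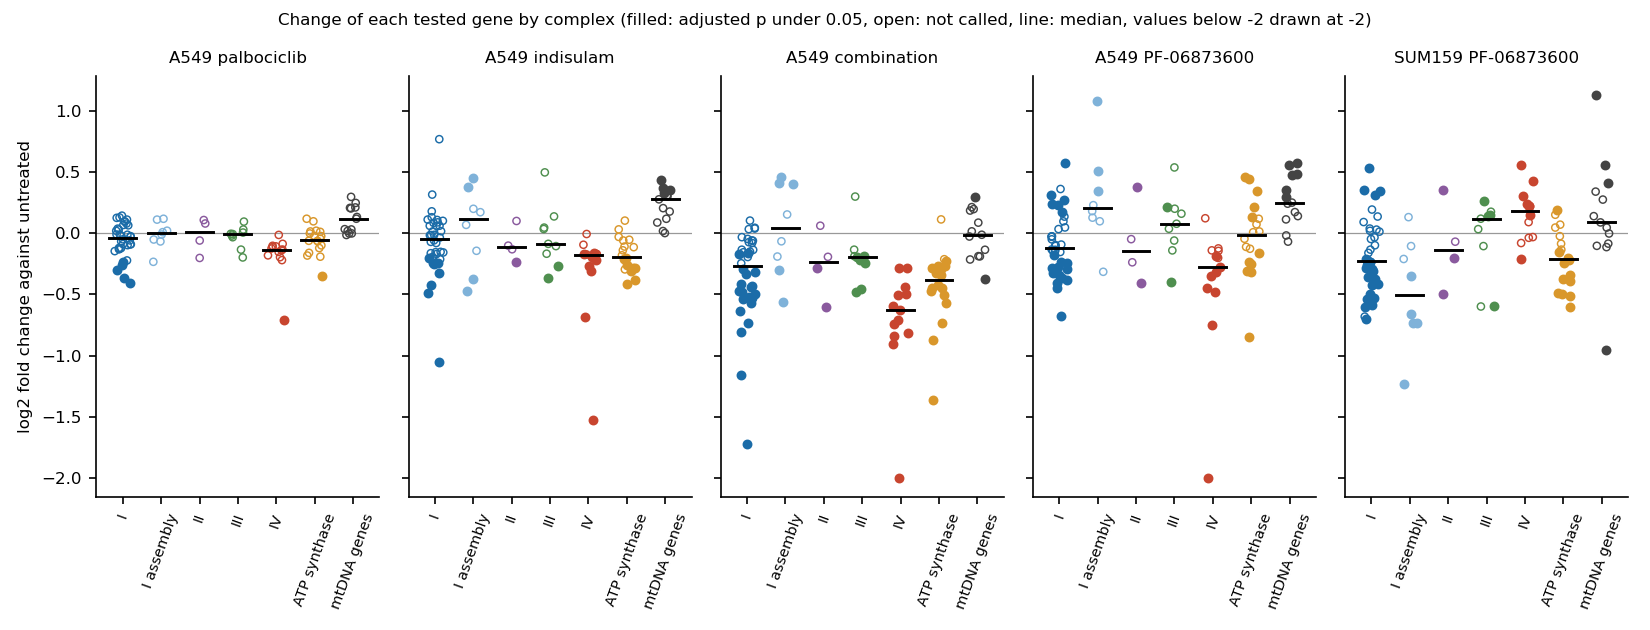
Log2 fold change against untreated cells (vertical axis) of each tested gene, grouped by complex, in 5 treatments. Filled points passed an adjusted p under 0.05, open points did not, horizontal lines are medians, and NDUFA4L2 is drawn at −2 where it lies below it. All 13 nuclear complex IV genes lie below 0 in the combination panel and their median is −0.62, while their median is 0.18 in SUM159 with PF-06873600.

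The c-ring genes of ATP synthase encode the same mature protein and moved apart. ATP5MC1 was at 89.7 and 97.7 CPM untreated, 87.1 and 92.3 with palbociclib, 69.6 and 71.2 with indisulam, and 38.3 and 34.4 with the combination. The combination libraries lay below all others, and ATP5MC1 fell by 1.37 against untreated (SE 0.07, adjusted p = 6.3e-10). ATP5MC2 fell by 0.87 (SE 0.06, adjusted p = 8.3e-09), to 266.0 and 247.5 CPM. ATP5MC3 went from 130.8 and 141.8 CPM to 115.2 and 111.4, a fall of 0.27 (adjusted p = 0.0013). The catalytic subunits ATP5F1A (−0.33) and ATP5F1B (−0.27) fell as well, and ATP5IF1, an inhibitor of the enzyme, was at 0.11 without passing the test.

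Complex I genes spanned the widest range. NDUFB8 stood at 5.11 and 5.15 CPM with the combination and fell by 1.73 (SE 0.13, adjusted p = 2.1e-08). NDUFS1 was at 42.8 and 47.7 CPM and fell by 1.16 (SE 0.07, adjusted p = 2.3e-09), with both libraries below those of either single drug. NDUFS3 fell by 0.48, whereas the core subunits NDUFS7, NDUFS8 and NDUFV1 were at 0.05, 0.04 and −0.08 without passing the test. In complex II the membrane anchor SDHD (−0.60) and SDHB (−0.28) fell, and the flavoprotein SDHA was at 0.06. UQCRFS1, the Rieske protein of complex III, fell by 0.22. Calls were lost for SDHB without combination replicate 1 and for UQCRFS1 without untreated replicate 2 or combination replicate 2.

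The ubiquitous isoforms of complex IV all fell with the combination. COX7A2 was at 99.0 and 119.9 CPM untreated and 60.1 and 57.2 treated, and fell by 0.90 (SE 0.08, adjusted p = 2.8e-07). COX7B was at 157.2 and 185.2 CPM untreated and 102.4 and 92.1 treated, a fall of 0.82 (adjusted p = 8.2e-07). Neither gene's libraries overlapped. COX7A2L (−0.84), NDUFA4 (−0.74), COX8A (−0.71), COX6B1 (−0.59), COX6A1 (−0.50) and COX4I1 (−0.28) moved the same way. NDUFA4L2 fell by 2.06, to 2.27 and 1.67 CPM. Among assembly factors, NDUFAF8 (0.46), NDUFAF1 (0.41) and NDUFAF5 (0.41) rose, and NDUFAF4 fell by 0.56. NDUFAF1 lost its call without untreated replicate 1 or combination replicate 1, and both NDUFAF1 and NDUFAF5 lost theirs with DESeq2.

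**Figure D3:**
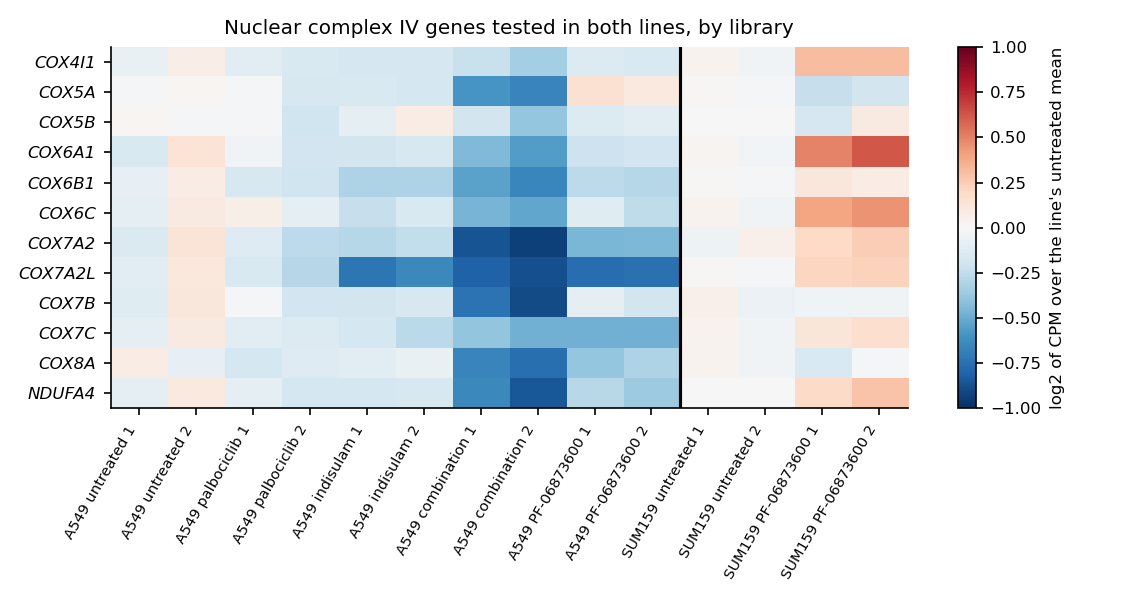
Heat map of the 12 nuclear complex IV genes tested in both lines (vertical) in the 14 libraries (horizontal), with colour giving log2 of CPM over the mean of the untreated libraries of the same line, from −1 (blue) to 1 (red). Both combination libraries are blue for every gene, deepest for COX7A2 (adjusted p = 2.8e-07), and most genes are red in SUM159 with PF-06873600 (right of the black line).

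Each drug added to the other lowered further members. Against palbociclib alone, the combination lowered 52 of 88 nuclear members and raised 4 (26.9% and 33.5% of all genes called lower and higher), with a median of −0.27 against 0.05 over all genes. Against indisulam alone it lowered 46 and raised 2 (23.9% and 22%), with a median of −0.24 against −0.02. Complex IV fell for 12 of 13 genes against palbociclib and 10 of 13 against indisulam, and ATP synthase for 16 and 12 of 18. ATP5MC1 fell by 1.30 against palbociclib (SE 0.07, adjusted p = 1.5e-09) and by 0.95 against indisulam (SE 0.07, adjusted p = 1.2e-07). NDUFS1 fell by 1.24 and 0.67, NDUFB8 by 1.61 and 0.67, and COX7B by 0.71 and 0.64. COX7A2L fell by 0.62 against palbociclib and was at −0.16 against indisulam without passing the test. Whether the effect of both drugs exceeded the sum of the single effects was not tested. The lower count against indisulam was 24 without combination replicate 2. The 4 genes higher against palbociclib were 2 without palbociclib replicate 1 or without combination replicate 1, and the 2 higher against indisulam were 0 or 1 with any library left out.

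PF-06873600 was given to A549 cells at another dose and for another time than palbociclib, and its values are set beside those of palbociclib without a comparison. Nuclear members were called in both directions, lower at a share a little above that of all genes and higher at a smaller share. Of 88 tested, 29 fell and 16 rose (27.8% and 28.5% of all genes), with a median of −0.10 against −0.01 over all genes. Complex IV had 8 of 13 lower and 0 higher (median −0.27), complex I had 13 lower and 6 higher of 36, ATP synthase 6 lower and 5 higher of 18, and the assembly factors 3 of 8 higher and 0 lower (median 0.21). NDUFAF8, a small assembly factor, went from 21.2 and 23.9 CPM to 50.4 and 45.2 and rose by 1.08 (SE 0.09, adjusted p = 1.2e-07), without overlap. NDUFS8, an iron-sulfur subunit of complex I, rose by 0.57, ATP5F1D of ATP synthase by 0.46, SDHA by 0.38 and ATP5MC1 by 0.35. The call of ATP5F1D was lost without untreated replicate 2 or without PF-06873600 replicate 2. ATP5MC2 was at 261.9 and 259.9 CPM and fell by 0.85 (adjusted p = 2.1e-08), so the c-ring genes ATP5MC1 and ATP5MC2 moved in opposite directions. COX7A2L was at 106.1 and 107.6 CPM and fell by 0.75 (adjusted p = 8.7e-07). NDUFS4 (−0.67), COX7C (−0.48), COX7A2 (−0.45) and SDHC (−0.41) fell too. NDUFA4L2 went to 0.536 and 0.927 CPM and fell by 3.43. The risen count was 10 without PF-06873600 replicate 1 and 8 without PF-06873600 replicate 2.

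In SUM159 cells the same dose and time of PF-06873600 lowered 39 of 87 tested nuclear members and raised 16, where 35.6% and 38.1% of all 15055 genes were called. The median was −0.13, against 0.02 over all genes. The order of the complexes was another than in A549: complex IV had 7 of 12 genes higher and 1 lower (median 0.18) and a summed level of 110.4% of untreated, whereas the assembly factors had 5 of 8 lower and 0 higher (median −0.50) and stood at 74.1%. ATP synthase had 11 lower and 1 higher of 18, complex I 19 lower and 4 higher of 36, complex II 2 lower and 1 higher, and complex III 1 lower and 3 higher. The risen count was 10 without PF-06873600 replicate 2.

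Among the complex IV genes, COX6A1 was at 26.0 and 25.1 CPM untreated and 36.1 and 39.2 treated, and rose by 0.56 (SE 0.08, adjusted p = 1.2e-05). Its duplicates did not overlap, though 52.2% of its 65-base words also occur elsewhere in the genome. COX6C (0.43), COX4I1 (0.31), NDUFA4 (0.24), COX7A2 (0.22) and COX7A2L (0.22) rose as well. NDUFAF4, an assembly factor of complex I, was at 27.1 and 27.7 CPM untreated and 11.5 and 11.9 treated, and fell by 1.23 (SE 0.09, adjusted p = 1.6e-08). NDUFAF8 went from 31.5 and 31.8 CPM to 17.8 and 20.1 and fell by 0.74 (adjusted p = 2.1e-06). NDUFAF5 (−0.73) and NDUFAF6 (−0.66) fell with them. Of the catalytic subunits, UQCRFS1 (−0.59), NDUFS7 (−0.58), SDHB (−0.49), NDUFS3 (−0.49), NDUFS8 (−0.41) and NDUFS1 (−0.28) fell, and all 3 c-ring genes fell, ATP5MC2 by 0.51, ATP5MC3 by 0.49 and ATP5MC1 by 0.38. SDHC, a membrane anchor of complex II with 51.6% of its words found elsewhere, rose by 0.36. Without PF-06873600 replicate 2 the calls of COX7A2 and NDUFA4 were lost.

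The difference between the lines in their response to PF-06873600 was tested directly, as an interaction term in a model of all 14 libraries and 17279 genes. The response was higher in SUM159 for 23 and lower for 26 of 88 tested nuclear members, beside 25.8% and 27.2% of all genes. Complex IV genes differed mostly one way, with 10 of 13 higher in SUM159 and 1 lower (median 0.56), and 5 of 8 assembly factors were lower and 0 higher (median −0.75). The 13 include NDUFA4L2, which did not pass the filter on low counts in SUM159. Its difference rests on its fall in A549 and is not a measured response of SUM159. COX7A2L differed by 0.98 (SE 0.10, adjusted p = 1e-07), SDHC and COX6A1 each by 0.76, and COX7A2 by 0.67. NDUFAF8 differed by −1.81 (SE 0.13, adjusted p = 4.8e-10), NDUFAF4 by −1.36, NDUFAF6 by −1.17, ATP5F1D by −1.06 and NDUFS8 by −0.99. NDUFB8 was at −0.01, without a detected difference between the lines.

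**Figure D4:**
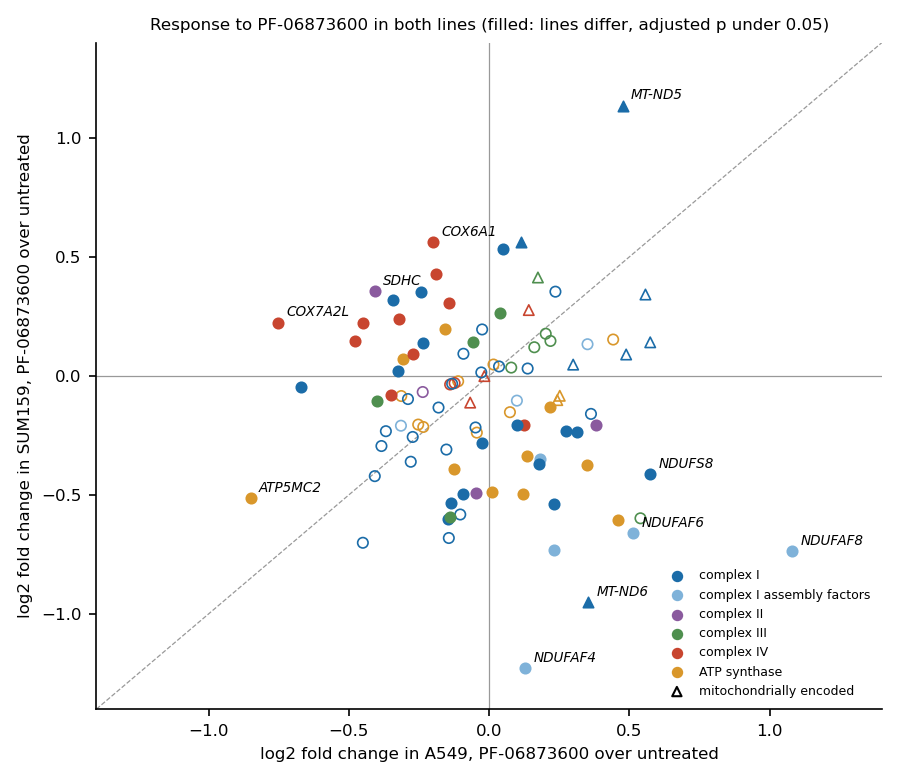
Log2 fold change with PF-06873600 in A549 (horizontal) and SUM159 (vertical) for genes tested in both lines, coloured by complex, with triangles for mitochondrially encoded genes. Filled points passed the interaction test at an adjusted p under 0.05, and the dashed line marks equal responses: most filled complex IV points lie above it (COX7A2L by 0.98) and the assembly factors below it (NDUFAF8 by −1.81).

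The number of mitochondrially encoded genes called changed with the libraries kept. Of 13 genes, 0 passed with palbociclib (lowest adjusted p = 0.18), 4 rose with indisulam (28% of all genes), and 1 rose and 1 fell with the combination (35.1% and 30%). In A549 with PF-06873600, 6 rose, all of complex I (28.5% of all genes), and in SUM159 3 rose and 1 fell (38.1% and 35.6%). Medians were 0.12, 0.28, −0.01, 0.25 and 0.09 in this order. Against palbociclib the combination raised 1 and lowered 2 (33.5% and 26.9% of all genes), and against indisulam it lowered 4 and raised 0 (23.9% and 22%). The interaction called 2 higher and 1 lower in SUM159 (25.8% and 27.2% of all genes). Without untreated A549 replicate 1 the counts were 3 higher with palbociclib, 9 with indisulam, 4 higher and 0 lower with the combination and 10 higher with PF-06873600. Without untreated A549 replicate 2 they were 0 with indisulam, and 0 higher and 4 lower with the combination. Without SUM159 untreated replicate 1 they were 2 higher and 8 lower, and without replicate 2 they were 12 and 1. The interaction gave 0 higher and 7 lower without SUM159 untreated replicate 1, 4 and 1 without replicate 2, 1 and 2 without untreated A549 replicate 1, and 0 and 1 without A549 PF-06873600 replicate 2 or SUM159 PF-06873600 replicate 1. Treated libraries decided others: 2 with palbociclib without its replicate 1, 0 with indisulam without its replicate 1, 3 with PF-06873600 in A549 without its replicate 1, and 2 higher in SUM159 without PF-06873600 replicate 1. For the combination against untreated, the counts were 1 higher and 0 lower without its replicate 1, and 0 and 2 without its replicate 2. Against palbociclib they were 0 and 7 without palbociclib replicate 1, 1 and 0 without palbociclib replicate 2 or combination replicate 1, and 0 and 2 without combination replicate 2. Against indisulam, 1 was lower without indisulam replicate 1 or combination replicate 1.

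MT-ND5, a proton-pumping core subunit of complex I, stood out in SUM159. It was at 1276 and 2063 CPM untreated and 4031 and 3300 with PF-06873600, without overlap, and rose by 1.13 (SE 0.16, adjusted p = 1.4e-05). In A549 it rose by 0.48 (SE 0.12, adjusted p = 0.0032), and the lines differed by 0.66 (adjusted p = 0.022). MT-ND6 went the other way in SUM159, from 61.5 and 118.2 CPM to 50.2 and 42.9, a fall of 0.95 (SE 0.20, adjusted p = 0.00047), and its response differed between the lines by −1.30 (SE 0.29, adjusted p = 0.00078). MT-ND3 rose by 0.56 and MT-CYB by 0.41 in SUM159, the latter with overlapping libraries and lost without SUM159 untreated replicate 1 or PF-06873600 replicate 1. The rises of MT-ND5 and MT-ND3 and the fall of MT-ND6 in SUM159 held with any library left out. With DESeq2, however, the SUM159 calls of MT-ND6 (adjusted p = 0.0593) and MT-CYB (adjusted p = 0.3345) were lost. The call of MT-CYB was also lost with totals outside mitochondrial DNA. The difference between the lines in MT-ND3 (0.45) was lost without either untreated replicate 1, SUM159 PF-06873600 replicate 1 or A549 PF-06873600 replicate 2. That in MT-ND5 was lost with DESeq2 (adjusted p = 0.0734) and without SUM159 untreated replicate 1, SUM159 PF-06873600 replicate 1 or A549 PF-06873600 replicate 2. MT-CO2 of complex IV fell with the combination by 0.38 against untreated, by 0.40 against palbociclib and by 0.39 against indisulam. These calls were lost without combination replicate 1, and respectively without untreated replicate 1, palbociclib replicate 2 and indisulam replicate 1. The call of MT-CO2 against indisulam was also lost with DESeq2. MT-ND1 rose with indisulam (0.33), the combination (0.29) and PF-06873600 (0.56) in A549. The first pair of calls was lost without untreated replicate 2, and without indisulam replicate 1 or combination replicate 2 in turn, while the call with PF-06873600 held with any library left out. The first pair was also lost with TMM factors and with DESeq2. The rise of MT-ND1 with the combination was lost as well with totals outside mitochondrial DNA and with a replicate block.

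Shares within the mitochondrially encoded counts leave out a difference between duplicates that all 13 genes share, but not one that varies by gene. In untreated SUM159, where the sums differed by 1.68-fold, the duplicates differed by 1.34-fold for MT-ND3 and 1.92-fold for MT-ND6. Of the counts on the 13 genes, MT-ND5 took 5.84% and 5.63% in untreated SUM159 and 10.9% and 10.6% with PF-06873600. MT-ND6 took 0.282% and 0.323% untreated and 0.136% and 0.138% treated. Both pairs were apart. With these genes scaled by their own sum, an alternative chosen after the data were seen, MT-ND5 rose by 0.91 (adjusted p = 2.9e-09) and MT-ND6 fell by 1.15 (adjusted p = 5.7e-10) in SUM159. MT-ND6 is read from the strand opposite to its neighbours, and its messenger is known to carry no stable poly(A) tail while the libraries were selected for poly(A). The use of strand in counting is not given in the sources used here, so reads of MT-ND6 and of antisense transcripts cannot be told apart.

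MT-CO2 took a smaller share in several groups. It took 10.3% and 10.5% of the mitochondrial counts in untreated cells, 8.86% and 9.18% with indisulam, 7.85% and 7.61% with the combination, and 8.23% and 8.20% with PF-06873600. All treated libraries of these groups lay below the untreated ones, and within the sum MT-CO2 fell by 0.20 with indisulam, 0.42 with the combination (adjusted p = 8.2e-07) and 0.34 with PF-06873600. Against library totals it fell with the combination but was at 0.02 with indisulam, −0.07 with PF-06873600 in A549 and −0.11 in SUM159 without passing the test, so a smaller share there is not a lower level. In SUM159 it took 11.1% and 10.4% untreated and 8.56% and 8.35% treated, and fell within the sum (adjusted p = 0.00018). MT-ND1 gained, from 6.13% and 6.36% in untreated A549 to 7.32% and 7.45% with the combination and 7.66% and 7.57% with PF-06873600. In this scaling 4 genes rose and 5 fell with the combination, 4 rose and 3 fell with PF-06873600 in A549, and 3 rose and 6 fell in SUM159.

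**Figure D5:**
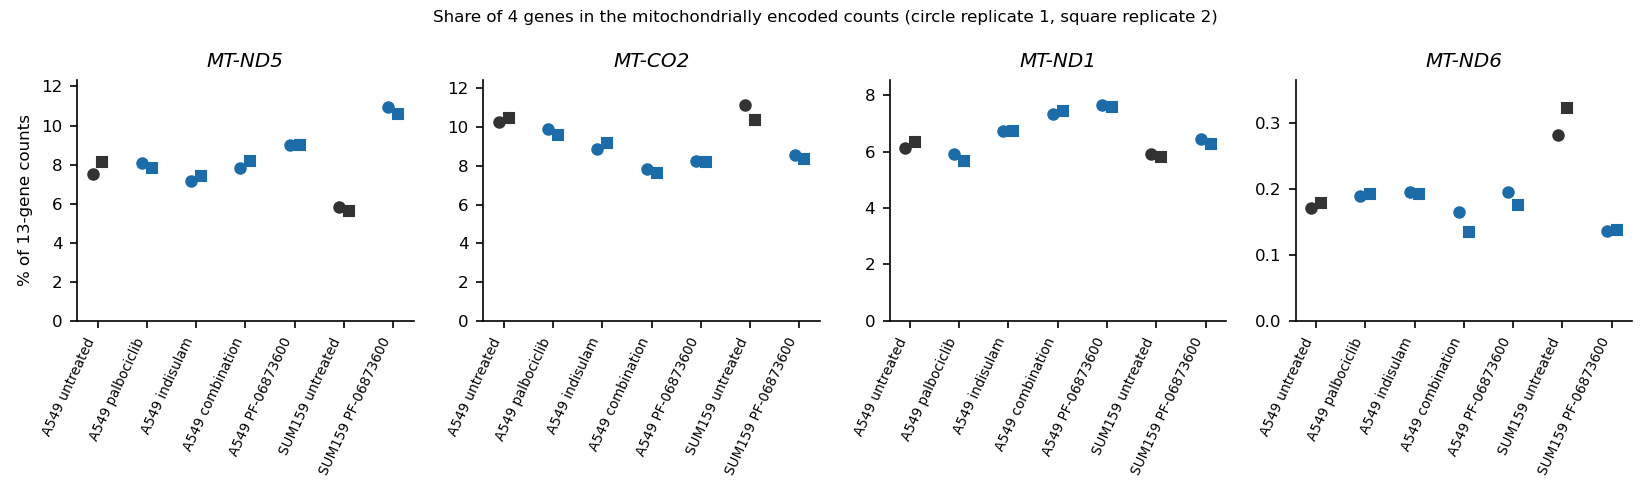
Share of MT-ND5, MT-CO2, MT-ND1 and MT-ND6 in the counts on the 13 mitochondrially encoded genes, in percent on linear axes from 0, with a point per library (circle, replicate 1; square, replicate 2; dark, untreated). MT-ND5 rises from 5.84% and 5.63% to 10.9% and 10.6% in SUM159, and MT-CO2 is lower in each combination and PF-06873600 library than in the untreated libraries of the same line.

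Nuclear genes that maintain and express mitochondrial DNA divided the lines. Of 17 such genes, 14 fell and 0 rose in SUM159 with PF-06873600 (median −0.62, against 0.02 over all genes), where 35.6% of all genes fell and 38.1% rose. In A549 2 fell and 3 rose (median 0.01), beside 27.8% and 28.5% of all genes, and the difference itself was called lower in SUM159 for 12, beside 27.2%. TFAM, which packages mitochondrial DNA and starts its transcription, fell by 1.06 in SUM159 and by 0.75 with the combination in A549, where 8 of 17 fell and 3 rose (30% and 35.1% of all genes). The helicase TWNK fell by 1.04 in SUM159, and the polymerase POLRMT rose by 0.51 in A549 with PF-06873600. With palbociclib 1 of the 17 fell (7.4% of all genes), and with indisulam 3 rose (28%). Of 19 genes of mitochondrial RNA processing and stability, 18 fell in SUM159 (median −0.67), and 13 rose and 0 fell in A549 with PF-06873600 (median 0.27), with 18 called lower in the difference. ELAC2, which cuts tRNA ends out of the mitochondrial precursor, rose by 0.75 in A549 and fell by 0.68 in SUM159, and the nuclease PNPT1 rose by 0.54 and fell by 1.21. With palbociclib 2 of the 19 rose (8.3% of all genes), with indisulam 10 rose and 1 fell (28% and 17.5%), and with the combination 6 rose and 5 fell (35.1% and 30%). The mitochondrial ribosomal RNAs MT-RNR1 and MT-RNR2 rose by 1.11 and 1.60 in SUM159, and MT-RNR2 rose by 0.51 with indisulam. Neither passed the test with palbociclib, the combination or PF-06873600 in A549.

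Assembly factors outside the symbol pattern, 47 in number, had 27 lower and 3 higher with the combination (median −0.32), where 30% and 35.1% of all genes were called. In SUM159 28 fell and 8 rose (median −0.41), beside 35.6% and 38.1%. Counts were 1 lower and 0 higher with palbociclib (7.4% and 8.3% of all genes), 11 and 4 with indisulam (17.5% and 28%), and 11 and 8 in A549 with PF-06873600 (27.8% and 28.5%). SURF1, needed to assemble complex IV, fell by 1.16 with the combination. CYC1 fell by 0.92 with the combination and by 0.69 in SUM159. CYCS fell by 0.19 with the combination, a call lost without untreated replicate 2 or combination replicate 2, rose by 0.63 in A549 with PF-06873600 and fell by 0.81 in SUM159. Among 16 genes of the citric acid cycle and pyruvate dehydrogenase, 8 fell and 1 rose with the combination, and 12 fell and 1 rose in SUM159, with citrate synthase (CS) at −1.01 and fumarase (FH) at −0.97. Of these 16, palbociclib moved 0, indisulam lowered 5 and raised 4, and PF-06873600 lowered 3 and raised 3 in A549. The shares of all genes called are those given for the 47 assembly factors.

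Transcriptional regulators of respiratory genes numbered 9. NRF1, whose letters were found in the promoters above, fell in all 5 comparisons with untreated cells, by 0.46 with palbociclib, 0.41 with indisulam, 0.64 with the combination, 0.74 with PF-06873600 in A549 and 1.41 in SUM159. The call with palbociclib was lost without palbociclib replicate 1 and with DESeq2 (adjusted p = 0.078), and that with indisulam without indisulam replicate 2. The coactivator PPARGC1A fell by 0.85 with palbociclib, 1.22 with the combination and 0.80 with PF-06873600 in A549 and rose by 2.11 in SUM159. Its relative PPARGC1B rose by 1.01 in A549 with PF-06873600 and fell by 1.58 in SUM159. GABPA fell by 0.62 and 0.36 with PF-06873600 in A549 and SUM159. In all, 2 rose and 2 fell with palbociclib and with indisulam, 1 rose and 4 fell with the combination, 2 rose and 4 fell in A549 with PF-06873600, and 1 rose and 7 fell in SUM159. Over all genes 8.3% rose and 7.4% fell with palbociclib, 28% and 17.5% with indisulam, 35.1% and 30% with the combination, 28.5% and 27.8% with PF-06873600 in A549, and 38.1% and 35.6% in SUM159. These are transcript levels and say nothing of the proteins' activity.

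Some members share sequence with other loci, which limits their counts, and 11 of the 96 nuclear members had at least 10% of their words elsewhere. Of their 65-base words, 41.2% in MT-CO1, 38.1% in MT-ND2, 35.7% in MT-ATP6, 38.0% in SDHD and 24.7% in UQCRH occur elsewhere in the genome. Other genes on the same strand covered 90.0% of NDUFV2, 69.4% of SDHA and 35.4% of COX8A. Reads in such stretches may have been dropped as ambiguous or multiply mapped, and values of these genes are uncertain to that extent.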

How the data were processed

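Polyadenylated RNA was made into strand-specific libraries and sequenced as 65-base single reads. The authors aligned reads to GRCh38 with HISAT2 2.2.1 and counted them per gene with HTSeq, per the submitters' processing notes, and deposited raw counts per gene for each of the 14 libraries. The strand setting of the counting is not given in the sources used here. Symbols came from GENCODE release 44, which held 60370 of the 60683 identifiers. Summary lines that name no gene were left out of totals.

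CPM was computed from the total on genes. Each comparison was tested with edgeR 4.0.16 (quasi-likelihood F-test, glmQLFit and glmQLFTest in R 4.3.3) on the deposited counts, scaled by total count after filterByExpr, with Benjamini-Hochberg adjustment over all genes tested and a threshold of 0.05. All A549 libraries shared a single model, SUM159 had its own, and the line difference used all 14. Alternatives were TMM factors, totals outside mitochondrial DNA, DESeq2 1.42.0, no filter, a replicate block and leaving out each library. Depth was 13060374 to 21149256 counts, and 3 counts was the floor for a count of 0, covering counting error only.

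On simulated counts, edgeR recovered 64.9%, 86.0% and 93.9% of genes changed by 0.5, 1 and 1.5 on the log2 scale in the A549 combination comparison (15246 genes), 63.6%, 94.0% and 98.0% in SUM159 (14680 genes), and 52.0%, 79.6% and 72.3% for the line difference (16162 genes, 6.06% of calls false). The simulation gave every gene the same spread and no shared difference between duplicates, so its rates do not cover the mitochondrial genes. Duplicates differed by more than sampling noise (chi-square per degree of freedom 1.61 to 9.57). The genes named are the mitochondrial genes, isoforms, catalytic subunits, the 5 largest rises and falls per comparison at 10 CPM or more without overlap, the extremes per length, and the 3 largest rises and falls of each list, with lists of 10 genes or fewer named freely. The members and lists were chosen with earlier results of these data known. Python 3.11.15 was used for descriptions and matplotlib 3.10.9 for plots. A member that the naming rule admits is not reported here.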

Additional observations from a re-analysis of the deposited data

Results flagged for a closer look

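The response to PF-06873600 differed between A549 and SUM159 by the interaction term of edgeR's quasi-likelihood test, with SUM159 minus A549 on the log2 scale. The response was higher in SUM159 for 23 and lower for 26 nuclear members, and higher for 2 and lower for 1 mitochondrially encoded gene. Over all genes 25.8% were higher and 27.2% lower, so the nuclear counts are near the background. Of 13 complex IV genes 10 were higher in SUM159 and 1 lower, with COX7A2L at 0.98, COX6A1 at 0.76 and COX7A2 at 0.67. The 13 include NDUFA4L2, which did not pass the filter on low counts in SUM159, so its difference rests on A549. SDHC of complex II was at 0.76 and NDUFA1 of complex I at 0.66. Of 8 complex I assembly factors 5 were lower and 0 higher, with NDUFAF8 at −1.81, NDUFAF4 at −1.36 and NDUFAF6 at −1.17. ATP5F1D was at −1.06 and NDUFS8 at −0.99. The c-ring genes differed in opposite directions, ATP5MC1 at −0.72 and ATP5MC2 at 0.34. Among mitochondrially encoded genes, MT-ND5 was at 0.66, MT-ND3 at 0.45 and MT-ND6 at −1.30. The call of MT-ND3 was lost with any of 4 libraries left out, and that of MT-ND5 with any of 3 and with DESeq2. The lines were grown in different media, so line and medium cannot be told apart. Groups held 2 libraries, so no library was tested as standing apart.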

How the results depend on the processing

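Of 174 called gene results in the text, 132 kept their direction and their call under every alternative other than scaling mitochondrial genes by their own sum, and 0 reversed under any. Of 145 results for genes outside mitochondrial DNA, 122 kept their call. Most losses came from leaving out a library (83 weaker, 673 the same) or from DESeq2 (26 weaker, 148 the same), and the cause was not tested. The 2 libraries per group limit what could be called. No other scaling moved the median of all genes by over 0.1.

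Counts below are of members called, and those not given differed by at most 1.5 times. With TMM factors, indisulam raised 1 nuclear member and 1 mitochondrial gene. The combination then raised 0 and lowered 2 mitochondrial genes against untreated, and against palbociclib it raised 2 nuclear members and raised 0 and lowered 4 mitochondrial genes. With totals outside mitochondrial DNA, the combination raised 0 mitochondrial genes against untreated and 0 against palbociclib. With DESeq2, palbociclib lowered 3 nuclear members and indisulam raised 0 nuclear and 0 mitochondrial. The combination raised 1 nuclear member and raised 0 and lowered 2 mitochondrial genes against untreated, raised 2 nuclear and 0 mitochondrial against palbociclib, and raised 1 nuclear and lowered 1 mitochondrial against indisulam. In SUM159, 0 mitochondrial genes fell, and 1 differed upward between the lines. Without a filter, mitochondrial genes raised were 5 with palbociclib, 9 with indisulam, 4 with the combination (4 lowered), 10 with PF-06873600 in A549 and 6 in SUM159. The combination lowered 7 against palbociclib and 10 against indisulam (with 1 nuclear member raised), and 7 differed downward between the lines. With mitochondrial genes scaled by their own sum, chosen after seeing the data, palbociclib raised 1, indisulam raised 1 and lowered 3, and the combination raised 4 and lowered 5 against untreated, raised 2 and lowered 6 against palbociclib and raised 3 against indisulam. PF-06873600 lowered 3 in A549 and 6 in SUM159, and the lines differed upward for 4 and downward for 7.

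The labels do not say that replicate numbers mark a shared batch, and same-numbered libraries of the groups compared correlated at −0.29 (A549 untreated and palbociclib) to 0.25 (A549 untreated and indisulam) in their deviations, so libraries were not treated as paired. A replicate block gave 0 mitochondrial genes raised by the combination against untreated and 0 against palbociclib, and 5 raised in SUM159. It gave 59 nuclear members lowered by the combination. With crossed pairing for palbociclib, chosen after seeing the data, 12 nuclear members fell and 1 mitochondrial gene rose.

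Leaving out each library in turn, with a lone library assumed to vary like the other groups, gave these ranges. Nuclear members higher and lower were 0 to 4 and 1 to 22 for palbociclib, 1 to 8 and 16 to 38 for indisulam, 2 to 4 and 47 to 63 for the combination, 2 to 3 and 40 to 51 against palbociclib, 0 to 1 and 24 to 42 against indisulam, 8 to 18 and 22 to 38 for PF-06873600 in A549, 10 to 21 and 33 to 42 in SUM159, and 17 to 22 and 24 to 32 for the line difference. Mitochondrial genes higher and lower were 0 to 3 and 0 to 0, 0 to 9 and 0 to 0, 0 to 4 and 0 to 4, 0 to 1 and 0 to 7, 0 to 0 and 1 to 3, 3 to 10 and 0 to 0, 2 to 12 and 1 to 8, and 0 to 4 and 1 to 7 in the same order.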

Other observations

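Nuclear copies of mitochondrial genes also held reads. MTATP6P1, a copy of MT-ATP6 on chromosome 1, held 4054 to 6866 counts per library, and MTCO1P12, a copy of MT-CO1 on the same chromosome, held 209 to 534. In each of these genes the SUM159 untreated replicate 1 library had the lowest count and the palbociclib replicate 2 library the highest, before any scaling for depth.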
